A study of Homo sapiens with 9 samples.

Results

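RNA-seq libraries of SH-SY5Y cells kept for 72 h in 20 µM citrinin were compared with libraries of the same line kept for 72 h in vehicle, across all genes. The comparison uses 6 of the 9 libraries of the study, 3 of each group, chosen by the dose in the sample titles. The other 3 libraries, from cells kept for 72 h in 10 µM citrinin, entered the fit to help estimate the spread and are used below to place the intermediate dose. All 3 groups were grown in the same serum-containing medium, and the labels name no genetic change, transgene or second agent in any of them. A single cell line was used, so every value describes 1 genetic background. Nothing in the labels tells whether the replicates of a group were separate cultures. The p-values therefore reflect the spread among these particular samples alone, and part of that spread may be technical.

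SH-SY5Y is an established line cloned from a human neuroblastoma, a childhood tumour that arises from precursors of the sympathetic nervous system. Neuroblastoma lines can hold cells in a neuron-like state, marked by sympathetic transcription factors and neurite proteins, and cells in a flat, adherent, mesenchymal-like state, marked by matrix proteins, CD44 and AP-1 factors. Citrinin is a toxin made by Penicillium and Monascus moulds on stored grain and fermented rice, and is best known for damage to the kidney. Oxidants and reactive chemicals switch on antioxidant genes through the transcription factor NRF2, and a group of 66 tested genes of that kind stands apart here from the families that are the subject, as does a group of 49 tested sympathetic neuron genes.

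Between 15678443 and 19604367 reads per library fell in genes, and mitochondrially encoded genes took 10.3% to 12.4% of them. Levels are given as CPM, a gene's reads relative to the TMM-scaled library total, in replicate order 1, 2 and 3. Across the doses, libraries that carry one replicate number were alike, so the fit held that number as a block. The tissue label was checked against markers. Of 16 neuroblastoma markers 15 were tested, and TH, which encodes the first enzyme of catecholamine synthesis, had 3 reads in all 9 libraries. PRPH, which was tested, was also low, with 135 reads in all 9 libraries. In CPM from library totals, the 16 together summed to 3537 to 4452 in vehicle and 2947 to 3815 at 20 µM, and 11 of them fell while none rose. The 16 mesenchymal markers summed to 7064, 5096 and 7122 CPM in vehicle and 6768, 5604 and 7581 at 20 µM. The sum was thus lower in replicate 1 and higher in replicates 2 and 3. Of the 16, 4 were called higher, CD44, VIM, FOSL1 and YAP1, and 0 lower, with a median log2 fold change of -0.02. TWIST1, which was not called, was lower in each pair, at 224, 215 and 183 CPM in vehicle and 219, 159 and 155 at 20 µM. Of 10 Schwann and glial markers 6 were tested and none was called, with FABP7 and CDH19 at 0 reads in every library. Of 7 epithelial markers 4 were tested and none was called, with KRT5 at 0 reads. The 6 blood cell markers summed to at most 2.34 CPM in the vehicle and 20 µM libraries.

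Citrinin at 20 µM changed a small share of the transcriptome, and by small amounts. Of 17806 tested genes, 393 passed edgeR's quasi-likelihood test at a Benjamini-Hochberg adjusted p below 0.05, which is 2.21% of the genes tested. Of these, 151 were higher (0.848%) and 242 lower (1.36%). The median log2 fold change was 0.32 among the higher genes and -0.30 among the lower ones, against -0.00 over all tested genes. Of the 393 genes, 41 changed at least 1.5-fold, 28 of them upward and 13 downward, and 9 changed at least 2-fold. The antioxidant group held 30 of the higher genes and none of the lower ones, and the sympathetic group 16 of the lower ones and none of the higher ones, which leaves 121 higher and 226 lower genes outside both. In bulk RNA, fewer cells of a type and less RNA per cell cannot be told apart.

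Whether these calls could be made rested on the pairing. In 391 of the 393 genes the 20 µM library lay on the same side of the vehicle library in all 3 same-numbered pairs. The genes were called with the pairs as a block, so this agreement largely follows from the calling and is no separate support. The 3 vehicle and 3 20 µM values were separate, with no overlap, in only 102 of the 393, while 1203 of all tested genes (6.76%) did not overlap. Without the block edgeR called no gene, with 387 genes at an unadjusted p below 0.05 and a smallest adjusted p of 0.116, while DESeq2 called 10 higher genes and 1 lower gene and limma-voom 0. Each of the 6 libraries also carried weight: without vehicle replicate 2, 41 genes were higher and 55 lower, and without 20 µM replicate 3 the counts were 66 and 83. The corresponding counts were 76 and 128 without vehicle replicate 1, 67 and 102 without vehicle replicate 3, 224 and 395 without 20 µM replicate 1, and 93 and 156 without 20 µM replicate 2. Of the 179 called genes selected for naming, 60 passed in each of the 6 fits without 1 library, and in none of the fits did any of the 179 change sign. The other 119 missed the threshold in at least 1 of these fits, 8 of them in exactly 1, 111 in 2 or more and 10 in all 6. By library left out, 117 missed it without vehicle replicate 2, 98 without 20 µM replicate 3, 86 without vehicle replicate 3, 78 without vehicle replicate 1, 76 without 20 µM replicate 2 and 25 without 20 µM replicate 1. Where a gene below is said to miss the threshold, the library named is the one whose removal gave its highest adjusted p, and most such genes missed it without other libraries too. Of the genes named below, NRXN2, PCDH18, KMT5B, ID1, IL24, DUSP16, ZDHHC8BP and KLF12 missed it in all 6 fits. Others kept the call in only 1 of the 6, among them TENM2, MDM2, CDKN1A, HSPA8, HSPH1, EDEM1, ISL1 and PHOX2A. Some called genes mentioned below lie outside the 179 and were not followed in these fits, so whether they kept the call is not known. They include IL1B, TNFRSF1A, IL17RD, PIEZO1, GBE1, KITLG, PLIN2, UCHL1, RNF144A and EPHB3. The same holds for PLXNA4, PLXNA2, NRP1, ADAM22, FOXO3, KLF13, KLF7 and MALAT1.

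**Figure D1:**
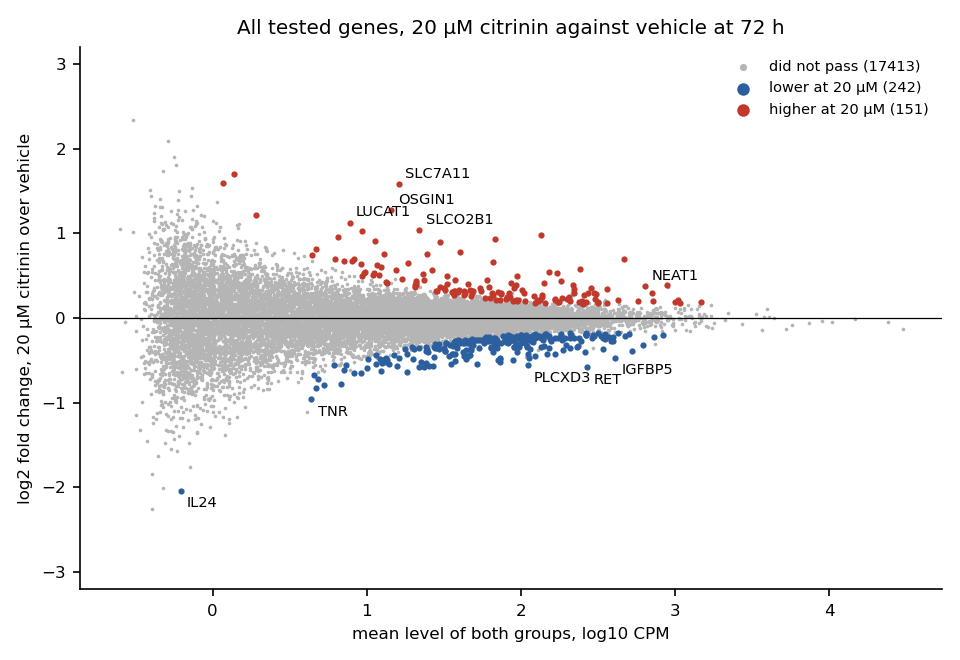
Log2 fold change at 20 µM citrinin over vehicle (vertical axis) against the mean level of both groups (horizontal axis, log10 CPM) for the 17806 tested genes. Red points are the 151 higher genes and blue points the 242 lower genes, and most lie within a log2 fold change of 1 of the zero line.

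Outside the antioxidant group, the genes that rose with the smallest p included genes of membrane, surface and secreted proteins. ASPH (chr8:61500556-61714640, positions from GENCODE 29 on GRCh38), which encodes an aspartate beta-hydroxylase of the endoplasmic reticulum and shares its locus with calcium-handling proteins of that membrane, stood at 167, 198 and 209.7 CPM in vehicle and 229, 329 and 306 CPM at 20 µM. All 3 treated libraries were above all 3 vehicle libraries, and the log2 fold change was 0.58 ± 0.05 (SE, n = 3 per group; adjusted p = 5.58e-08). SEL1L3, a membrane protein gene, rose from 35.7, 56.7 and 58.8 to 50.7, 101 and 90.4 CPM, with a log2 fold change of 0.66 ± 0.06. CD44, the gene of the hyaluronan receptor and a mesenchymal-state marker, was at 96.3, 142 and 223 CPM in vehicle and 125, 203 and 297 CPM at 20 µM (log2 fold change 0.44 ± 0.05; adjusted p = 1.79e-06). Its groups overlapped, because replicate 1 was lowest and replicate 3 highest in both, while each treated library exceeded its own vehicle partner. NT5E, the gene of the surface enzyme CD73 that makes adenosine from AMP, had the same order of libraries, at 87.3, 168 and 306 and 99.6, 248 and 396 CPM (log2 fold change 0.38 ± 0.06). TFRC, the transferrin receptor gene through which cells take up iron, was at 302, 331 and 325 CPM in vehicle and 356, 427 and 439 CPM at 20 µM without overlap, for a log2 fold change of 0.35 ± 0.05 (adjusted p = 3.93e-05). GLIPR1 rose from 34.4, 67 and 120.0 to 42.8, 102 and 149 CPM, and its groups overlapped. UBASH3B, which encodes a phosphatase that acts on tyrosine kinases, varied most between replicates among these genes, at 4.91, 17.7 and 32.6 CPM in vehicle and 8.51, 35.3 and 47.5 CPM at 20 µM, with a log2 fold change of 0.75 ± 0.10 (adjusted p = 4.51e-05). All 7 of these genes passed in each of the 6 fits without 1 library.

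Interleukins, chemokines and their receptors had more members that rose than fell. Of 71 tested members 6 rose and 2 fell, which is 11.3% called against 2.21% of all tested genes. The median log2 fold change was 0.09, against -0.00 over all genes. CXCL8 (chr4:73740506-73743716), the gene of interleukin-8, a chemokine that draws neutrophils, was at 77.6, 283 and 395 CPM in vehicle and 102, 358 and 499.6 CPM at 20 µM. The difference between replicates 1 and 3 was far wider than the treatment difference, a log2 fold change of 0.36 ± 0.05 (adjusted p = 2.74e-05) that was positive in each pair. CXCL12, the ligand of CXCR4, rose from 162, 183 and 242 to 201, 244 and 296 CPM (log2 fold change 0.34 ± 0.05; adjusted p = 5.46e-05). IL13RA2, a decoy receptor gene for interleukin-13, rose from 3.63, 5.91 and 19.9 to 7.0, 10.5 and 30.5 CPM, a log2 fold change of 0.75 ± 0.12. In all 3 of these genes replicate 3 was the highest library of both groups. The remaining members that rose were IL1B, TNFRSF1A and IL33, of which IL33, an alarmin gene, had a log2 fold change of 0.64 ± 0.15. IL17RD fell, as did IL24, whose level was near the detection limit, at 0.702, 0.511 and 1.82 CPM in vehicle and 0.181, 0.172 and 0.343 CPM at 20 µM. NFKBIZ, an inducible co-regulator of NF-kB target genes, rose from 35.4, 87.9 and 115 to 44.3, 124 and 135 CPM (log2 fold change 0.36 ± 0.06). CCL2, a monocyte chemokine gene, did not pass, at 569, 723 and 895 CPM in vehicle and 705, 758 and 885 CPM at 20 µM. CXCL8, CXCL12 and IL13RA2 passed in each of the 6 fits without 1 library. IL33 and IL24 missed the threshold without vehicle replicate 3 (adjusted p 0.280 and 0.417), and NFKBIZ without vehicle replicate 2 (0.0592).

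Promoter sequence was compared because stress signals reach genes through short elements near the start site, such as those bound by AP-1, NRF2 and cyclic AMP factors, and because inducible genes often carry a TATA box. RefSeq promoters on GRCh38.p14, 250 bases before to 50 after the annotated start, were matched by symbol for 11107 of 13728 tested protein-coding genes, 120 of them higher and 183 lower. A TATA box, TATAAA on either strand, starting 20 to 40 bases before the start site occurred in 2.07% of all 11107 promoters (230). It occurred in 15 of the 100 matched promoters of higher genes outside the antioxidant group (15.0%), in 2 of the 20 of the antioxidant group (10.0%) and in 2 of the 183 of lower genes (1.09%). The window of 20 to 40 bases was chosen after the data were seen, and over the whole 300 bases the shares were 5.72% of all, 17.5% of higher and 5.46% of lower promoters. The 15 genes were CXCL8, TFRC, NFKBIZ, PIEZO1, GBE1, KITLG, PLIN2, ANXA2, UCHL1, ECM1, ID1, RNF144B, DUSP1, MT2A and ABCA1. The AP-1 element TGANTCA, where N is any base and which reads the same way on both strands, was in 4.58% of all promoters, 10.8% of higher and 2.73% of lower ones. The antioxidant response element TGACNNNGC, on either strand and free to overlap an AP-1 element, was in 14.8%, 17.5% and 13.7%. The cyclic AMP element TGACGTCA was in 3.2%, 0.833% and 1.64%. These matches are a description of letters in a window and no record of binding.

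Both an AP-1 element and a TATA box in that window were held by 17 of the 11107 promoters, and 4 of these belonged to higher genes, CXCL8, ANXA2, ECM1 and MT2A. Their 250 bases before the start are shown 5′ to 3′ on the strand of the gene, with the AP-1 and TATA letters in capitals, because they place both motifs in genes that rose.
CXCL8 promoter, chr4:73740319-73740568, plus strand: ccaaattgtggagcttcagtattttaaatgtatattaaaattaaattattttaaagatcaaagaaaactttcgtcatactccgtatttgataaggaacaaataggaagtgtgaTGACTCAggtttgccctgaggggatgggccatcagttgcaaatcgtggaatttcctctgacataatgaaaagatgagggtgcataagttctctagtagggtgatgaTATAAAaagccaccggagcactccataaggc
ANXA2 promoter, chr15:60397987-60398236, minus strand: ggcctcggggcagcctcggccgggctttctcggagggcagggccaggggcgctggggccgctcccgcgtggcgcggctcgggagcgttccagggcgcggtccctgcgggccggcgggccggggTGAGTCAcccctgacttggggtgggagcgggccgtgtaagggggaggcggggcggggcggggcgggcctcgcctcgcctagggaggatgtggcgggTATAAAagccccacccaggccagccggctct
ECM1 promoter, chr1:150507859-150508108, plus strand: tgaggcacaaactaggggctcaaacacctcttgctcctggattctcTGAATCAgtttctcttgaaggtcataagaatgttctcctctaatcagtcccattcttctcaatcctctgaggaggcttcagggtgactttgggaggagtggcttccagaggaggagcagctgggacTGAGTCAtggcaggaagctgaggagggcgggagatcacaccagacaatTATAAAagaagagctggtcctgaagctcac
MT2A promoter, chr16:56608334-56608583, plus strand: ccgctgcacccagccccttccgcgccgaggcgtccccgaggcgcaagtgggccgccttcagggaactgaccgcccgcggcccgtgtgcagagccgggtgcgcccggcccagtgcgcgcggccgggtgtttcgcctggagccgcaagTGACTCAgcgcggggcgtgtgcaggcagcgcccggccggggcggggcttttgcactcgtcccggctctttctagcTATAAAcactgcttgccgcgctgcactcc
The AP-1 element nearest the start began 137 bases before it in CXCL8, 127 in ANXA2, 78 in ECM1 and 104 in MT2A, and the TATA box 31, 31, 30 and 29 bases before it. ANXA2, the gene of the membrane-binding protein annexin A2, was at 496, 447 and 648 CPM in vehicle and 568, 518 and 740.4 CPM at 20 µM (log2 fold change 0.20 ± 0.05; adjusted p = 0.0155). ECM1, an extracellular matrix protein gene, was at 10.5, 5.68 and 10.9 and 14, 7.96 and 16.5 CPM, a log2 fold change of 0.50 ± 0.12 (edgeR adjusted p = 0.0227). MT2A, a metallothionein gene whose near-identical relatives can share reads with it, was at 80.02, 98.8 and 168 and 92.3, 109.5 and 192 CPM, a log2 fold change of 0.18 ± 0.05 (edgeR adjusted p = 0.0454, just under the threshold). The groups of all 3 overlapped, and replicate 3 was the highest library in each. ECM1 and MT2A were picked for their promoters after their values were seen, and were not among the genes followed in the fits without 1 library. The AP-1 letters of MT2A are also part of a match to the antioxidant response element.

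**Figure D2:**
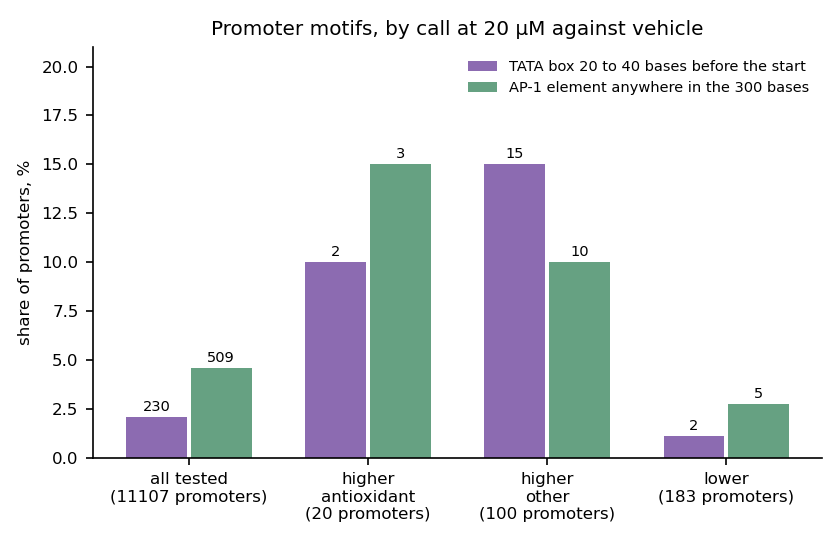
Share of RefSeq promoters (vertical axis, %) that hold a TATA box 20 to 40 bases before the start or an AP-1 element anywhere in the 300 bases, by call at 20 µM against vehicle, with the number of promoters above each bar. Higher genes outside the antioxidant group show 15.0% with a TATA box in the window, against 2.07% of all tested genes.

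Genes of the cytoskeleton and nuclear envelope changed in small steps. Called shares were 5.56% of actin, tropomyosin, myosin and actin-binding genes and 9.52% of annexin and S100 genes, against 2.21% of all tested genes. Of 72 tested genes for actin, tropomyosin, myosin and their binding proteins 4 rose and none fell, with a median of 0.06. They were ACTA2, the smooth muscle actin gene (74.1, 93.8 and 114 CPM in vehicle, 95, 116 and 133 at 20 µM), TPM1, FLNC and ZYX, with log2 fold changes of 0.30 ± 0.06, 0.18 ± 0.04, 0.27 ± 0.06 and 0.19 ± 0.05. ACTB, the cytoplasmic actin gene, did not pass (0.11 ± 0.05, adjusted p = 0.270). LMNA, the gene of lamins A and C that stiffen the nuclear envelope, was at 266, 259.8 and 306 CPM in vehicle and 312, 331 and 368 CPM at 20 µM without overlap, a log2 fold change of 0.28 ± 0.05 (adjusted p = 4.51e-04). LMNB1, a lamin gene whose product is abundant in dividing cells, fell from 95.3, 101 and 89.1 to 86.6, 82.3 and 75.2 CPM, also without overlap (-0.22 ± 0.06). VIM, the intermediate filament gene of mesenchymal cells, rose from 461, 337 and 385 to 540.0, 374 and 458 CPM (0.21 ± 0.05). Of 21 tested annexin and S100 genes 2 rose, ANXA2 and S100A16 (0.32 ± 0.07), and none fell. LMNA passed in each of the 6 fits without 1 library. ACTA2, TPM1, FLNC, ZYX, S100A16 and ANXA2 missed the threshold without vehicle replicate 2 (adjusted p 0.145 to 0.417), LMNB1 without vehicle replicate 3 (0.233), and VIM without 20 µM replicate 3 (0.232).

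AP-1, YAP and stress-response genes had members on the upper side. Called shares were 10.5% of ERK pathway feedback genes, 20.8% of YAP targets, 6.25% of p53 targets and 4.71% of heat shock and cochaperone genes. The share over all tested genes was 2.21%. FOSL1, which encodes the AP-1 subunit FRA1, was at 9.48, 13.2 and 20.6 CPM in vehicle and 13.6, 24.9 and 29.4 CPM at 20 µM, and each treated library was above its vehicle partner while the groups overlapped (log2 fold change 0.65 ± 0.10; adjusted p = 2.91e-04). Of 19 tested genes of ERK pathway feedback, FOSL1 and PHLDA1 rose and none fell. Of 24 tested YAP target genes 4 rose, NT5E, YAP1, MYOF and DOCK5, and IGFBP3 fell, and the median was 0.00. YAP1 itself, the gene of the co-activator, went from 31.1, 32.9 and 50.8 to 40.8, 44.3 and 56.6 CPM (0.32 ± 0.07), and CCN1, a classical YAP target, did not pass (0.15 ± 0.05; adjusted p = 0.0853). Of 32 tested p53 target genes 2 rose, MDM2 (0.21 ± 0.05) and CDKN1A (0.18 ± 0.05), none fell, and the median was 0.13 with 21.9% of members below 0. Of 85 heat shock and cochaperone genes DNAJB4 (0.35 ± 0.06), HSPA8, BAG2 and HSPH1 rose and none fell, with a median of 0.04. DNAJB4 was the one among them without overlap between the groups, at 41.8, 46.1 and 54.8 CPM in vehicle and 55.3, 63.5 and 62.4 CPM at 20 µM. FOSL1 passed in each of the 6 fits without 1 library. YAP1, IGFBP3, MDM2, CDKN1A, DNAJB4, HSPA8 and HSPH1 missed the threshold without vehicle replicate 2 (adjusted p 0.0728 to 0.516), PHLDA1 and MYOF without vehicle replicate 3 (0.135 and 0.208), DOCK5 without 20 µM replicate 3 (0.423), and BAG2 without vehicle replicate 1 (0.292).

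Among transporters and enzymes a few members changed and the family medians stayed near 0. The called share was 3.52% of solute carriers, 12.5% of ABC transporters, 2.04% of aldehyde and alcohol dehydrogenases and 3.45% of glycolysis genes. Over all tested genes it was 2.21%. Of 227 tested solute carriers 3 rose and 5 fell (median 0.01). SLC7A11, the cystine importer gene of the antioxidant group, rose most of the 3, from 7.49, 8.52 and 7.82 to 16.1, 33.8 and 22.8 CPM (log2 fold change 1.58 ± 0.15; adjusted p = 2.20e-06), and SLCO2B1, an organic anion transporter gene of the same group, went from 9.94, 14.3 and 18.9 to 20.5, 38 and 30.1 CPM (1.04 ± 0.11), both without overlap. SLC27A6, a fatty acid transporter gene, fell from 36.6, 71.3 and 53.1 to 28.5, 52.6 and 37.9 CPM (-0.43 ± 0.07). Of 32 ABC transporters ABCC3, a drug and bile salt pump gene and also of the antioxidant group, rose from 105, 146 and 169 to 147, 216 and 248 CPM (0.53 ± 0.05; adjusted p = 3.39e-08), as did the cholesterol exporter gene ABCA1 (0.29 ± 0.08), while ABCD2, for peroxisomal fatty acid import, and the lipid transporter gene ABCA3 fell (-0.42 ± 0.08 and -0.27 ± 0.05). ALDH3A2, the fatty aldehyde dehydrogenase gene, rose from 73.9, 79.7 and 86.4 to 92, 110.3 and 113 CPM without overlap (0.39 ± 0.05; adjusted p = 5.03e-05), the only called gene among 49 aldehyde and alcohol dehydrogenases. PTGR1, which encodes an enzyme that reduces prostaglandins and reactive alkenals, rose from 21.9, 35.3 and 38 to 31.1, 47.9 and 50.6 CPM (0.45 ± 0.07). PKM, the pyruvate kinase gene, was the only called gene of 29 glycolysis genes, at 1236, 1372 and 1498 CPM in vehicle and 1469, 1549.9 and 1654 CPM at 20 µM (0.19 ± 0.05). Of these, SLC7A11, SLCO2B1, SLC27A6, ABCC3, ALDH3A2 and PTGR1 passed in each of the 6 fits without 1 library. ABCA1, ABCD2, ABCA3 and PKM missed the threshold without vehicle replicate 2 (adjusted p 0.120 to 0.511).

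Among ubiquitin, autophagy, proteasome and endoplasmic reticulum families, called shares ran from 0% to 3.97%, against 2.21% of all tested genes. Of 252 tested TRIM, FBX, USP and related ubiquitin genes 6 rose and 4 fell (3.97%), and 3 of the 6, TRIM16L, TRIM16 and FBXW10B, belong to the antioxidant group. TRIM16L was at 29.7, 30.6 and 28.3 CPM in vehicle and 58.4, 51.5 and 43.2 CPM at 20 µM, and TRIM16, its near-identical copy on chromosome 17, at 23.9, 19.4 and 20.3 and 38.4, 28.8 and 27.4 CPM, both without overlap, with log2 fold changes of 0.78 ± 0.07 and 0.57 ± 0.09. The split of reads between the copies is uncertain. RNF144B, an E3 ligase gene, rose (0.53 ± 0.14), and RNF144A, its close relative, fell. Of 67 autophagy and lysosome genes 2 were called (2.99%). SQSTM1, the gene of the cargo receptor p62 and a member of the antioxidant group, rose from 208, 243 and 285 to 260.3, 312 and 330.5 CPM (0.30 ± 0.05; adjusted p = 2.29e-04), CTSK, a cathepsin gene, rose (0.38 ± 0.09), and none fell. No gene of 46 proteasome subunits passed, although 15.2% of them lay below 0 (median 0.08). EDEM1, which marks misfolded glycoproteins for removal, was the only called gene of 34 endoplasmic reticulum folding and transport genes (2.94%), with a log2 fold change of 0.21 ± 0.05. TRIM16L, TRIM16 and SQSTM1 passed in each of the 6 fits without 1 library. RNF144B, FBXW10B, CTSK and EDEM1 missed the threshold without vehicle replicate 2 (adjusted p 0.157 to 0.498).

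**Figure D3:**
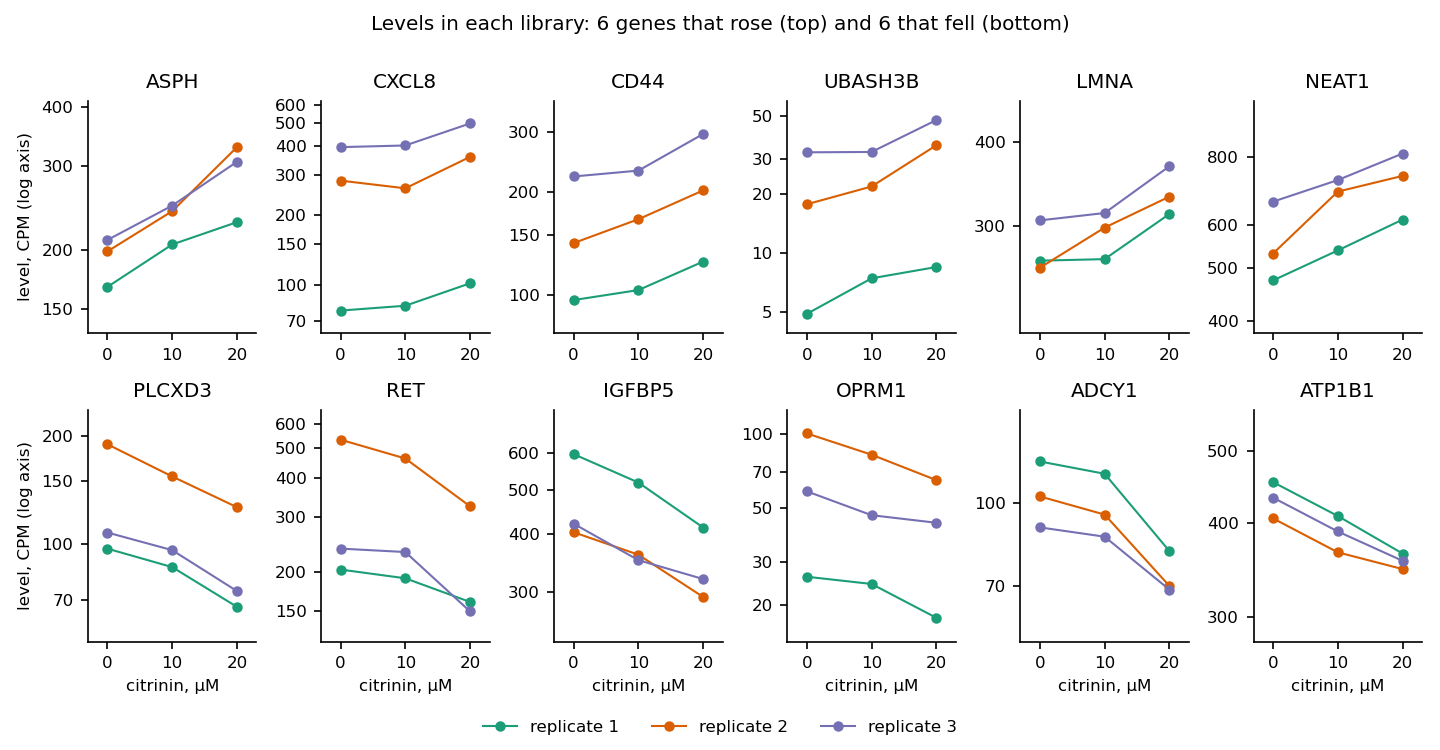
Level in each library (vertical axis, CPM on a log scale) against the citrinin concentration (horizontal axis, µM) for 6 genes that rose and 6 that fell, with lines joining libraries of the same replicate number. The lines of CXCL8 and OPRM1 lie far apart between replicates and still move the same way from 0 to 20 µM, while all 3 lines of ATP1B1 start within 406 to 454 CPM.

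The genes that fell with the smallest p included genes of signalling, secreted and neuronal proteins. PLCXD3 (chr5:41306954-41510628), which encodes a phospholipase C-like protein, fell from 97.1, 189.9 and 108 CPM in vehicle to 66.8, 127 and 73.9 CPM at 20 µM (log2 fold change -0.56 ± 0.05; adjusted p = 7.42e-08), and replicate 2 was the highest library of both groups. IGFBP5 (chr2:216672105-216695525), the gene of a secreted insulin-like growth factor binding protein, fell from 597, 404 and 422 to 414, 292 and 319.6 CPM, with replicate 1 highest in both groups (-0.47 ± 0.05; adjusted p = 3.34e-07). ADCY1, the calcium-stimulated adenylate cyclase gene of neurons, fell from 119.7, 103 and 90.1 to 81.4, 70.05 and 68.9 CPM without overlap (-0.50 ± 0.05). C7, a complement component gene, fell from 774, 618 and 387 to 626, 461 and 284 CPM, with replicate 1 highest in both groups (-0.39 ± 0.05). PEG10, a gene derived from a retrotransposon and expressed from the paternal allele, fell from 270.3, 312 and 300.4 to 208, 231 and 231 CPM, and PPP1R12B, a myosin phosphatase subunit gene, from 130.5, 116 and 144 to 96.4, 79.96 and 107 CPM, both without overlap (-0.40 ± 0.04 and -0.47 ± 0.05). ELMO1, which works with DOCK proteins in cell movement, fell from 89.8, 92.1 and 72 to 70.7, 64.6 and 47 CPM, again without overlap (-0.49 ± 0.06). INHBA, the activin A subunit gene, fell from 131, 25 and 102 to 92.7, 14 and 77.9 CPM (-0.52 ± 0.07), and its replicate 2 was lowest in both groups. All 8 passed in each of the 6 fits without 1 library.

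Receptor families had more called members lower than higher, as did all tested genes, of which 1.36% were lower and 0.848% higher. The called share of all tested genes was 2.21%. Of 112 tested G protein-coupled receptor genes 6 fell and 2 rose (7.14% called, median -0.07). OPRM1 and OPRD1, the mu and delta opioid receptor genes, fell together. OPRM1 was at 26.1, 100.2 and 58.2 CPM in vehicle and 17.8, 64.7 and 43.4 CPM at 20 µM, with replicate 1 lowest and replicate 2 highest in both groups (-0.54 ± 0.07; adjusted p = 2.01e-05), and OPRD1 at 23.3, 26.2 and 20.3 and 16.2, 18.7 and 15.3 CPM without overlap (-0.48 ± 0.09; adjusted p = 0.00216). GNG4, a G protein gamma subunit gene, fell from 158, 277 and 201 to 133, 204 and 147 CPM (-0.38 ± 0.05), and RGS4, a regulator that shortens G protein signals, from 1078, 931 and 677 to 898, 804 and 621 CPM (-0.20 ± 0.05). The lysophosphatidic acid receptor gene LPAR3 fell (-0.83 ± 0.19), and ADGRG1, an adhesion receptor gene, rose from 4.62, 3.98 and 5.52 to 5.43, 8.19 and 9.65 CPM (0.70 ± 0.17). Of 43 tested receptor tyrosine kinase genes 5 fell, RET, ALK, NTRK2, KIT and EPHB3, and none rose (11.6% called). RET, ALK and NTRK2 are of the sympathetic group. RET (chr10:43077027-43130351), the gene of the receptor for glial cell line-derived neurotrophic factor, fell from 204, 533 and 238 to 160.0, 325 and 149 CPM (-0.58 ± 0.06; adjusted p = 1.25e-05), and replicate 2 was highest in both groups. ALK, the kinase gene mutated in some neuroblastomas, fell from 47.5, 58.5 and 42.4 to 32.3, 44.2 and 32.4 CPM (-0.45 ± 0.07). NTRK2, the receptor gene for brain-derived neurotrophic factor, was low, at 6.20, 10.8 and 3.23 CPM in vehicle and 4.53, 5.21 and 1.83 CPM at 20 µM (-0.79 ± 0.18). DDR2, a collagen receptor kinase gene, did not pass (-0.02 ± 0.05; adjusted p = 0.906). OPRM1, OPRD1, GNG4, RET and ALK passed in each of the 6 fits without 1 library. RGS4, ADGRG1 and NTRK2 missed the threshold without vehicle replicate 2 (adjusted p 0.248, 0.392 and 0.328), LPAR3 without vehicle replicate 3 (0.192), and KIT without vehicle replicate 1 (0.570).

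Axon guidance genes had 1 higher and 7 lower members. Adhesion and matrix families had called shares from 0% to 16.7%, against 2.21% of all tested genes. Of 56 tested semaphorin, plexin, netrin, slit and ephrin pathway genes 14.3% were called, of which 7 fell, SEMA5A, PLXNA4, PLXNA2, UNC5A, UNC5B, ROBO2 and SEMA6A, and NRP1, a semaphorin co-receptor gene, rose. SEMA5A, a guidance cue gene, fell from 220.3, 73.6 and 89.7 to 165, 54 and 68 CPM, replicate 1 being the highest library in both groups (-0.42 ± 0.05; adjusted p = 2.01e-05). UNC5A, a netrin receptor gene, fell from 25.7, 43.9 and 26.7 to 16.4, 28 and 20.2 CPM (-0.57 ± 0.09). TENM4 and TENM2, teneurin genes, and NRXN2, a neurexin gene, all of which span synapses, fell (-0.34 ± 0.06, -0.48 ± 0.12 and -0.31 ± 0.08) among 18 tested genes of their families, with none higher. The called share of these 18 genes was 16.7%. NTNG2, a netrin-G gene, fell from 43.6, 20.3 and 13.3 to 32.2, 13.3 and 7.77 CPM (-0.57 ± 0.09), the only called gene of 32 leucine-rich repeat and related surface genes (3.12%). Of 46 tested protocadherins PCDH17 (-0.52 ± 0.11) and PCDH18 (-0.32 ± 0.08) fell and none rose (4.35% called, median -0.11). Integrin alpha genes ITGA1, ITGA11 and ITGA9 fell (-0.23 ± 0.04, -0.25 ± 0.06 and -0.35 ± 0.08) among 22 tested integrin genes (13.6% called). ITGB1, the common beta subunit gene, did not pass (0.11 ± 0.05, adjusted p = 0.392). No gene passed among 26 collagens and 9 cadherins. Of 49 tested ADAM, ADAMTS, MMP and TIMP genes (10.2% called) ADAM23 rose and 4 fell, ADAMTS5, ADAMTS2, TIMP3 and ADAM22. ADAMTS5, an aggrecan-cleaving protease gene, fell from 33.8, 30.9 and 25.9 to 17.9, 21.8 and 21.1 CPM without overlap (-0.57 ± 0.09; adjusted p = 5.97e-04). SEMA5A, UNC5A, TENM4, NTNG2 and ADAMTS5 passed in each of the 6 fits without 1 library. NRXN2 and PCDH18 missed the threshold in all 6, and TENM2, ROBO2 and SEMA6A passed in only 1. UNC5B, ROBO2, SEMA6A, PCDH17, ITGA1, ITGA9, ADAM23, ADAMTS2 and TIMP3 missed the threshold without vehicle replicate 2 (adjusted p 0.0852 to 0.488), NRXN2, PCDH18 and ITGA11 without vehicle replicate 1 (0.250, 0.222 and 0.316), and TENM2 without 20 µM replicate 3 (0.339).

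Channels and excitability genes had 7 called members and every one was lower. Called shares were 5.77% of potassium channels, 5.41% of calcium, sodium and TRP channels and 5.26% of transmitter-gated channels. The share over all tested genes was 2.21%. Of 52 tested potassium channel genes 3 fell and none rose, among them KCNH1 (9.65, 9.54 and 6.70 CPM in vehicle, 5.49, 4.87 and 4.63 CPM at 20 µM, without overlap) and KCNC1, with log2 fold changes of -0.78 ± 0.15 and -0.44 ± 0.10, and the family median was -0.07. CACNA2D2, an auxiliary subunit gene of voltage-gated calcium channels, fell from 63.4, 113 and 72.7 to 49.8, 72.5 and 52.2 CPM (-0.49 ± 0.06; adjusted p = 1.76e-05), and replicate 2 was highest in both groups. SCN9A, a sodium channel gene of sympathetic and sensory neurons, fell from 89, 124 and 107 to 79.5, 106 and 91.3 CPM (-0.21 ± 0.05). Of 38 tested transmitter-gated channel genes 2 fell and none rose, among them CHRNA7, a nicotinic receptor subunit gene (-0.34 ± 0.09), whereas CHRNA3, the nicotinic subunit gene of autonomic ganglia, did not pass (-0.10 ± 0.05; adjusted p = 0.391). ATP1B1, a sodium pump subunit gene, fell from 454, 406 and 433 to 364, 347 and 356 CPM without overlap (-0.27 ± 0.04; adjusted p = 3.31e-04). CACNA2D2 and ATP1B1 passed in each of the 6 fits without 1 library. KCNH1, KCNC1, SCN9A and CHRNA7 missed the threshold without vehicle replicate 2 (adjusted p 0.0944 to 0.431).

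Neuronal cytoskeleton genes gave both directions, and STMN2, DCX and ELAVL4 are of the sympathetic group. Tubulin and microtubule-binding genes had a called share of 7.02%, kinesins and dyneins 4.84%, and splicing factors with related RNA-binding genes 2.94%. Over all tested genes it was 2.21%. STMN2, which encodes a tubulin-binding protein of growth cones, fell from 601, 846 and 628 to 526, 650.1 and 485 CPM (-0.31 ± 0.05; adjusted p = 1.41e-04), and DCX, the doublecortin gene of migrating neurons, from 39.5, 109.9 and 66.5 to 32.1, 87.7 and 49.2 CPM (-0.35 ± 0.06). MAP1A and TTLL7, a microtubule-binding protein gene and a tubulin-modifying enzyme gene, rose (0.25 ± 0.05 and 0.25 ± 0.06) among the same 57 tested genes. NSG2, an endosomal protein gene of neurons, fell from 83.5, 252 and 178 to 68.4, 175 and 130.4 CPM, with replicate 2 highest and replicate 1 lowest in both groups (-0.43 ± 0.05). KIF26B, a kinesin-like gene, fell from 263, 150.2 and 161 to 196, 109 and 122 CPM (-0.43 ± 0.05; adjusted p = 1.24e-06), as did KIF21A (-0.25 ± 0.05) and KIF26A (-0.26 ± 0.06). No kinesin or dynein gene of 62 rose, and 0.848% of all tested genes did, a share at which families of this size hold few higher genes or none. ELAVL4 and ELAVL2, neuronal RNA-binding protein genes, fell (-0.21 ± 0.05 and -0.42 ± 0.09). STMN2, DCX, NSG2 and KIF26B passed in each of the 6 fits without 1 library. MAP1A, TTLL7, KIF21A, KIF26A, ELAVL4 and ELAVL2 missed the threshold without vehicle replicate 2 (adjusted p 0.137 to 0.353).

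Transcription factor families leaned downward, with TFAP2B, GATA2, PHOX2A, SIX3 and ISL1 from the sympathetic group. Called shares were 15.4% of SOX, FOX, GATA, KLF, SP and TFAP2 genes, 9.26% of homeobox genes and 10.5% of core clock genes. The share over all tested genes was 2.21%. Of 52 tested SOX, FOX, GATA, KLF, SP and TFAP2 genes 8 fell and none rose, 82.7% were below 0 against 50.6% of all tested genes, and the median was -0.11. TFAP2B, a factor of neural crest and sympathetic development, fell from 189, 134 and 102 to 163, 83.9 and 72.1 CPM, with replicate 1 highest in both groups (-0.45 ± 0.07; adjusted p = 2.50e-04). SP1, a general GC-box factor, fell from 157, 144 and 139 to 135, 116 and 124 CPM without overlap (-0.23 ± 0.05), and the others were FOXO3, FOXN3, KLF13, GATA2, KLF7 and KLF12, of which KLF12 missed the threshold in all 6 fits without 1 library. Of 54 homeobox genes 5 fell, CUX2, TLX2, PHOX2A, SIX3 and ISL1, and none rose (median -0.13, 74.1% below 0). CUX2, a factor of cortical neurons, fell from 44.5, 52.5 and 27.9 to 29.1, 33.8 and 21.8 CPM (-0.54 ± 0.08; adjusted p = 7.45e-05). Of 19 core clock genes NR1D1 and PER3 fell (-0.48 ± 0.11 and -0.39 ± 0.10), none rose, and 89.5% were below 0 (median -0.11). Of 37 basic helix-loop-helix genes 1 rose and 1 fell. ID1, an inhibitor of such factors, rose (0.19 ± 0.05), and HAND2 did not pass (-0.14 ± 0.04; adjusted p = 0.131). In contrast, of 494 tested genes with ZNF and ZFP symbols 1 rose and 3 fell, a called share of 0.810% that is below the 2.21% of all genes. TET1, which oxidises methylcytosine, fell from 32.4, 25.4 and 26.3 to 18.5, 17.5 and 20.2 CPM without overlap (-0.57 ± 0.09; adjusted p = 3.56e-04), and with KMT5B (-0.25 ± 0.07) was 1 of 2 called genes among 111 chromatin-modifying enzymes. TFAP2B, CUX2 and TET1 passed in each of the 6 fits without 1 library. KMT5B and ID1, like KLF12, missed the threshold in all 6, and SIX3, ISL1, FOXN3, GATA2 and PHOX2A passed in only 1. SP1, KLF12, TLX2, SIX3, ISL1, NR1D1, PER3 and KMT5B missed the threshold without vehicle replicate 2 (adjusted p 0.121 to 0.533), FOXN3 and ID1 without vehicle replicate 1 (0.211 and 0.301), and GATA2 and PHOX2A without 20 µM replicate 3 (0.259 and 0.364).

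**Figure D4:**
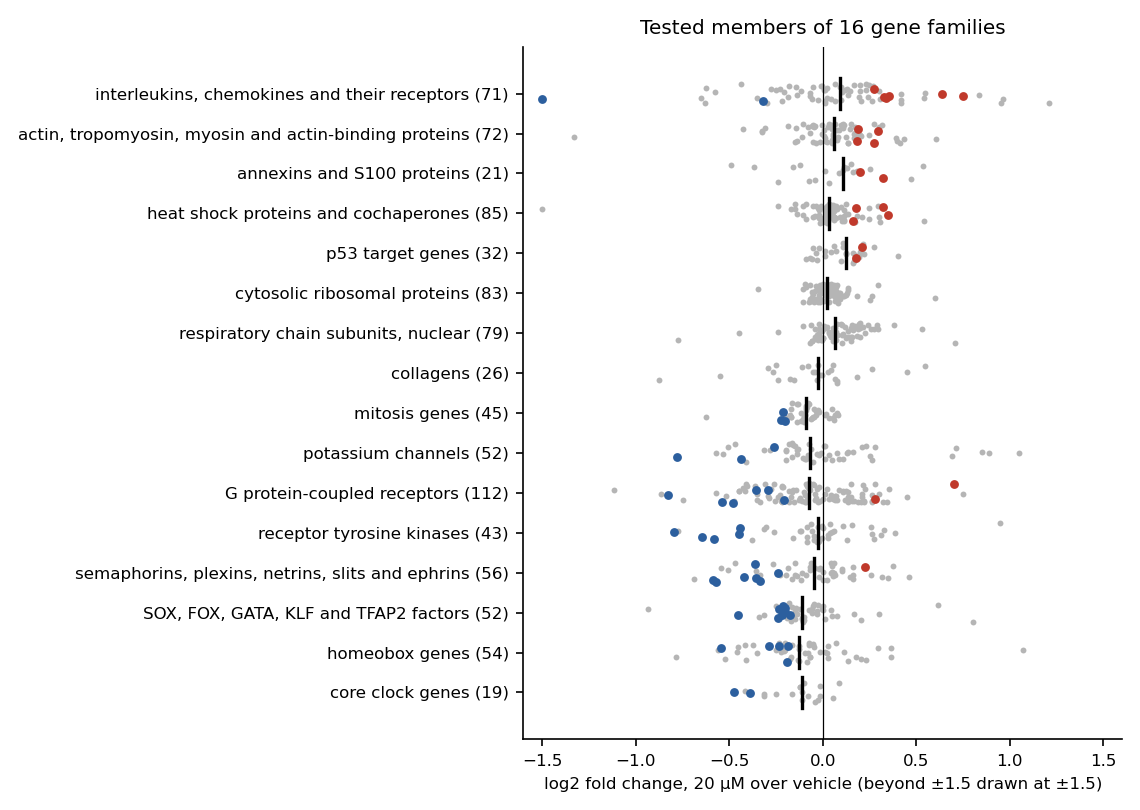
Log2 fold change at 20 µM over vehicle (horizontal axis) of each tested member of 16 gene families, with the number tested in brackets, red for higher and blue for lower genes and a black bar at the median. Called members lie on the upper side for actin-binding proteins, on the lower side for homeobox, clock and channel genes, and on both sides for interleukins, with 6 higher and 2 lower, and none is called among ribosomal, respiratory chain and collagen genes.

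Growth, division and survival families differed in called share. It was 6.67% of mitosis genes, 1.61% of DNA replication genes and 8.11% of BCL2 family and death receptor genes, against 2.21% of all tested genes. Of 45 tested mitosis genes TOP2A, MKI67 and SMC4 fell and none rose. The median of the 45 was -0.09, and 77.8% of them lay below 0, against 50.6% of all tested genes. TOP2A, the DNA-untangling enzyme gene of dividing cells, was at 427, 469 and 376 CPM in vehicle and 376, 382 and 328 CPM at 20 µM (-0.23 ± 0.05; adjusted p = 0.00517). Of 62 DNA replication genes POLE4 rose (0.55 ± 0.14) and none fell, and CCND1, the cyclin D1 gene, stood at 394, 575 and 517 CPM in vehicle and 391, 571 and 517 CPM at 20 µM (-0.00 ± 0.04). BCL2, the survival gene whose product blocks mitochondrial cell death, fell from 179.5, 152 and 141 to 146, 117 and 113 CPM (-0.33 ± 0.05; adjusted p = 8.39e-05), and BMF and BIRC3 fell (-0.32 ± 0.07 and -0.29 ± 0.08), among 37 genes of the BCL2 family and death receptors of which none rose. The median of those 37 was nevertheless 0.06, and MCL1, a relative of BCL2, did not pass (0.04 ± 0.04; adjusted p = 0.781). BCL2 passed in each of the 6 fits without 1 library. TOP2A, MKI67, SMC4, POLE4 and BMF missed the threshold without vehicle replicate 2 (adjusted p 0.151 to 0.460), and BIRC3 without 20 µM replicate 3 (0.317).

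Several families held no called gene, against a called share of 2.21% over all tested genes, at which families of these sizes hold few called genes or none. None passed among 83 cytosolic ribosomal protein genes (median 0.02), 79 nuclear genes of respiratory chain subunits (median 0.07, 30.4% below 0), 13 mitochondrially encoded genes (median -0.05), 41 mitochondrial carriers, 68 phospholipases and lipid kinases, 30 cytochrome P450, UGT and sulfotransferase genes, 22 Notch and Hedgehog genes and 24 small nucleolar RNA host genes. MT-CO1, a mitochondrially encoded cytochrome oxidase subunit gene, was at 32389, 30487 and 30621 CPM in vehicle and 32469, 26515 and 26999 CPM at 20 µM (-0.13 ± 0.05; adjusted p = 0.261). ATP5F1B, a nuclear gene of the ATP synthase, was at 533, 517 and 511 and 532, 500.4 and 509.7 CPM (-0.02 ± 0.04; adjusted p = 0.916). Among 100 genes each of mitochondrial import and ribosomes and of translation 1 gene passed per family, TIMM17A (0.21 ± 0.05) and EIF2B1 (0.21 ± 0.05), both upward and without overlap. In all, 60 of the 71 families held at least 1 called gene, and 173 of the 393 called genes belonged to a family. TIMM17A and EIF2B1 missed the threshold without vehicle replicate 2 (adjusted p 0.445 and 0.250).

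Of the 393 called genes 15 were not protein-coding. NEAT1 (chr11:65422774-65445540), the noncoding RNA that builds nuclear paraspeckles, was at 474, 532 and 663 CPM in vehicle, 539, 692 and 726 CPM at 10 µM and 614, 739 and 813 CPM at 20 µM (0.38 ± 0.05; adjusted p = 1.69e-05). Its neighbour on chromosome 11, MALAT1, which lies at chr11:65497688-65506516 on GRCh38 and was picked after its values were seen, fell from 556, 495 and 550.2 to 496, 441 and 471 CPM (-0.19 ± 0.04; adjusted p = 0.0220). Counts here do not use strand, so reads from an antisense RNA at either locus cannot be told from theirs. LUCAT1, a stress-inducible long noncoding RNA that is in the antioxidant group, rose from 3.45, 6.82 and 4.41 to 8.57, 14 and 9.20 CPM without overlap (1.13 ± 0.14; adjusted p = 1.95e-05). CYTOR (0.50 ± 0.12) and DLGAP1-AS2 (0.67 ± 0.15) rose, and LINC01116 (-0.52 ± 0.10) and AC016717.2 (-0.72 ± 0.19) fell. The pseudogenes FTH1P2 (1.22 ± 0.33) and ZDHHC8BP (-0.67 ± 0.18) were also called, but share sequence with FTH1 and ZDHHC8, so their counts are uncertain. The called shares were 3 of 307 intergenic RNAs (0.977%) and 2 of 596 antisense RNAs (0.336%). NEAT1 and LUCAT1 passed in each of the 6 fits without 1 library. CYTOR, DLGAP1-AS2, LINC01116 and AC016717.2 missed the threshold without vehicle replicate 2 (adjusted p 0.0839 to 0.511), FTH1P2 without 20 µM replicate 3 (0.282), and ZDHHC8BP without vehicle replicate 3 (0.287).

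The genes that rose outside the antioxidant group shared an order among replicates, which the block takes out of the treatment contrast. Among these 121 genes the vehicle library of replicate 3 was the highest of the 3 in 99 (81.8%) and that of replicate 1 the lowest in 86 (71.1%), against 29.5% and 38.7% of all tested genes. The median difference between vehicle replicates 3 and 1 was 0.57 on the log2 scale for the 121 genes, against a median treatment log2 fold change of 0.32 over all 151 higher genes, and -0.00 for all tested genes. In the 10 µM libraries, which are on neither side of the contrast but entered the fit, replicate 3 was the highest for 89 of the 121 genes (73.6%), against 29.9% of all genes. Same-numbered libraries were alike across the doses, so this order is no separate support for the order in vehicle. The 30 antioxidant genes had a smaller difference between vehicle replicates 3 and 1, 0.13, with replicate 3 highest in 16 (53.3%) in vehicle and in 9 (30%) at 10 µM. Among the genes that fell, vehicle replicate 3 was the highest of the 3 for 13 of 242 (5.37%) and the lowest for 112 (46.3%), and replicate 2 was the highest for 136 (56.2%). Replicate 1 was the highest for 93 of them (38.4%) and the lowest for 97 (40.1%), near the 39.6% and 38.7% of all tested genes. Genes are not independent of each other, so these shares describe 3 sets of libraries, and what set replicate 3 apart from replicate 1 was not tested. CXCL8, CD44, NT5E and UBASH3B above show the order in single genes. Genes that fell also had a larger exon length, summed over all annotated exons of a gene, which is not the length of 1 transcript. Its median was 7712 bases, against 4424.5 for all tested genes, noncoding ones included, and 5306 for the higher ones. Among tested protein-coding genes with a matched promoter the median was 5240, and 7731 for the lower ones. The lower genes had a median vehicle level of 76.1 CPM, against 17.5 for all tested genes. Whether length or level bears on the calls was not tested.

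**Figure D5:**
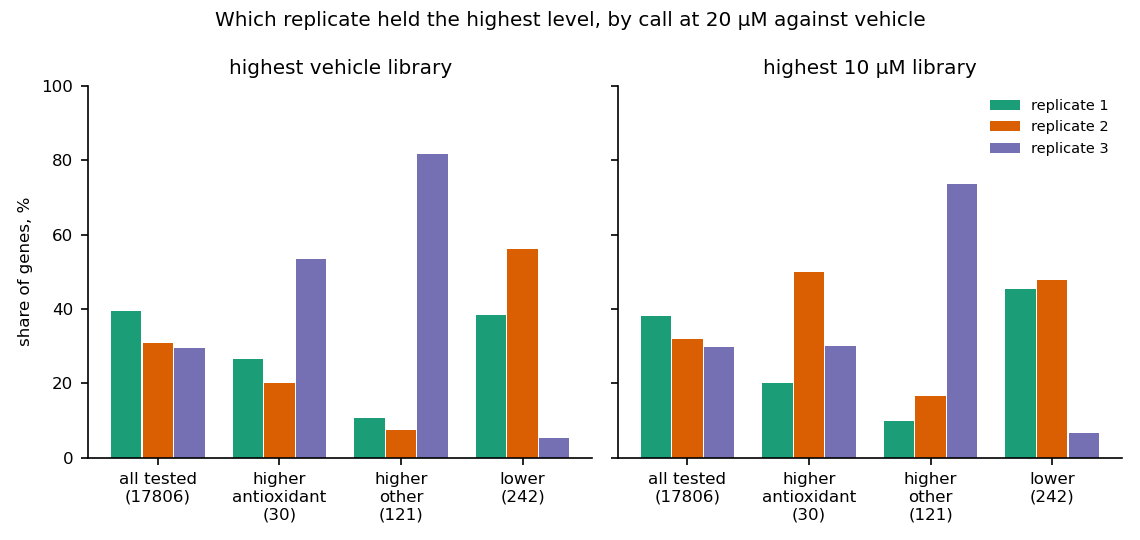
Share of genes (vertical axis, %) whose highest vehicle library (left) or highest 10 µM library (right) was replicate 1, 2 or 3, for all tested genes and for genes by their call at 20 µM against vehicle. Replicate 3 is highest for 81.8% of the higher genes outside the antioxidant group in vehicle and 73.6% at 10 µM, against 29.5% and 29.9% of all tested genes.

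Against the 10 µM libraries, 79 genes differed at 20 µM (0.444%), 32 higher (0.18%) and 47 lower (0.264%). The comparison shares its 20 µM libraries with the one above, so the values are given side by side. ABCC3, which is of the antioxidant group, was at 105, 146 and 169 CPM in vehicle, 119, 168 and 189 CPM at 10 µM and 147, 216 and 248 CPM at 20 µM, and the log2 fold change between the doses was 0.36 ± 0.05 (edgeR adjusted p = 1.29e-04). ASPH was at 205, 241 and 248 CPM at 10 µM, and rose by 0.31 ± 0.05 on the log2 scale from there to 20 µM (adjusted p = 0.00222). CXCL8, at 81.4, 262 and 401 CPM at 10 µM, had a log2 fold change between the doses of 0.36 ± 0.05 (adjusted p = 1.29e-04). PLCXD3 was at 86.2, 154 and 96.2 CPM at 10 µM and differed from there by -0.34 ± 0.05 (adjusted p = 5.17e-04), and ADCY1, at 114, 95.2 and 86.6 CPM at 10 µM, by -0.42 ± 0.05 (adjusted p = 1.29e-04). KIF26B, at 254, 139 and 152 CPM at 10 µM, differed by -0.35 ± 0.05 (adjusted p = 1.37e-04). NEAT1, by contrast, had no called difference between the doses (0.15 ± 0.05; adjusted p = 0.245), nor did LUCAT1 (0.45 ± 0.14; adjusted p = 0.178). At 10 µM against vehicle 6 genes were called, all higher (0.0337%). Without the block no gene differed between the doses, with 111 higher and 99 lower at an unadjusted p below 0.05, and DESeq2 and limma-voom without it also called none. Without 10 µM replicate 3 the counts were 6 and 4, without 20 µM replicate 3 they were 17 and 9, without 20 µM replicate 2 they were 17 and 15, without 10 µM replicate 2 they were 78 and 107, and without 20 µM replicate 1 they were 126 and 175.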

How the data were processed

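Total RNA of 9 SH-SY5Y libraries was sequenced. Per the submitters' processing notes, FastQC, cutadapt, STAR and edgeR were used with GRCh38; tool versions were not given in the sources at hand. Per library and gene, the authors deposited raw counts per gene and library. Both strands were equally frequent (ratio 0.981 to 0.993), so the joint count was used; 76.4% to 78.0% of reads were assigned to genes, and reads unmapped, multiply mapped, ambiguous or outside genes did not enter library sizes or tests.

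Of 36838 genes with a read, 17806 passed edgeR's filterByExpr. All 9 libraries were fitted with edgeR's robust quasi-likelihood test (edgeR 4.0.16 in R 4.3.3; alternatives with DESeq2 1.42.0 and limma 3.58.1), TMM scaling (factors 0.989 to 1.013), 3 groups and the replicate number as a block, with p-values adjusted by Benjamini-Hochberg over all tested genes at 0.05. The numbers come from the sample titles. After removal of group means, libraries of the same number correlated at r = 0.457 to 0.685 in 9 of 9 pairs, above the limit of 0.1 used to take numbers as pairing. Others correlated at -0.545 to 0.139, so the limit alone does not separate them. Each of the 9 libraries correlated best with one of its own number. Removal of group means lowers correlations between different numbers once same numbers agree, so the negative values are no separate support. Within each group all libraries differed by more than sampling noise (lowest chi-square over its degrees of freedom 8.62). Standard errors are |log2 fold change| divided by the square root of F. Symbols were matched for 61474 of 61487 identifiers and positions taken from GENCODE 29 (58312 identifiers); 3 reads equal 0.153 to 0.191 CPM. The scripts were tested on simulated data.

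The comparison, the 71 families, the marker lists, the antioxidant and sympathetic groups and the naming rule were chosen with earlier results of these data known. The rule names the 15 higher and 15 lower protein-coding genes of smallest p outside those groups, up to 4 called members with the largest change per family with its most abundant member, 8 noncoding genes of at least 0.5 CPM with the largest change, the 5 called genes with the largest CPM difference in each direction, and 10 genes called at both contrasts. Alternatives are in the closing section. Some genes that the rule selects are not reported here.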

Additional observations from a re-analysis of the deposited data

How the results depend on the processing

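The counts at 20 µM against vehicle, 151 higher and 242 lower, depended on the replicate block. In edgeR with no replicate block they were 0 and 0, in DESeq2 without the block 10 and 1, and in limma-voom without it 0 and 0; DESeq2 and limma-voom without the block were added after the data were seen. With the block DESeq2 called 108 and 158 and limma-voom 138 and 243, and 107 and 157 of DESeq2's genes were also called by edgeR. A fit of the 6 libraries alone with the block called 262 and 382. Leaving out 1 library gave 41 to 224 higher and 55 to 395 lower genes, lowest without vehicle replicate 2, and leaving out 1 replicate number from all groups 26 to 168 and 22 to 283, lowest without replicate 3. Median-ratio size factors, library totals, no filter on low counts and a filter of at least 1 CPM in 3 libraries gave 155 to 220 higher and 195 to 340 lower genes.

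At 20 µM against 10 µM the counts of 32 and 47 fell to 0 and 0 without the block in edgeR, DESeq2 and limma-voom, and were 75 and 113 without the filter on low counts. Leaving out 1 library gave 6 to 126 higher and 4 to 175 lower genes, lowest without 10 µM replicate 3. Without replicate 1, 2 or 3 of all groups the counts were 74 and 100, 70 and 111, and 0 and 0. Among the 179 named called genes no setting reversed a sign; all 179 missed the threshold without the block in edgeR and limma-voom and 170 in DESeq2, 138 without replicate 3 of all groups and 117 without vehicle replicate 2, and the cause was not tested. Depth limits genes near 1 CPM, where 3 reads equal 0.153 to 0.191 CPM.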

Other observations

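Several called genes changed in the opposite direction to another member of their family, and these pairs were picked after their values were seen. ABCA1, the cholesterol exporter gene, was at 22.8, 48.7 and 57 CPM in vehicle and 21.6, 68.6 and 72.1 CPM at 20 µM, lower in replicate 1 and higher in replicates 2 and 3, while ABCA3 was at 80.5, 107 and 92.4 and 64.8, 87.3 and 79.9 CPM, lower in each pair. DUSP1, an early-response phosphatase gene for MAP kinases, rose from 19.8, 28.5 and 37.3 to 22.4, 42.4 and 43.7 CPM (0.34 ± 0.09 on the log2 scale), and DUSP16, of the same family, fell from 89.8, 97.7 and 86.1 to 74, 83.3 and 79.1 CPM (-0.21 ± 0.06). RAB27B, a secretory vesicle GTPase gene, rose from 2.16, 17.4 and 37.7 to 2.71, 30.2 and 48 CPM (0.52 ± 0.11), and RAB3C, a synaptic vesicle GTPase gene, fell from 19.4, 65.3 and 48.1 to 14.4, 55.4 and 40.9 CPM (-0.28 ± 0.07). ST3GAL1 and B4GALT6, which add sialic acid and galactose to glycans, rose (0.26 ± 0.05 and 0.30 ± 0.07), and FUT9 and ST6GAL2, which add fucose and sialic acid, fell (-0.61 ± 0.14 and -0.28 ± 0.07). ABCA1, ABCA3, DUSP1, DUSP16, RAB27B, RAB3C, ST3GAL1, B4GALT6 and FUT9 missed the threshold without vehicle replicate 2 (adjusted p 0.137 to 0.511), and ST6GAL2 without vehicle replicate 1 (0.235).

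RAB27B and KIT varied more between replicates than by dose: RAB27B was lowest in replicate 1 and highest in replicate 3 of both groups, and KIT, the stem cell factor receptor gene, was at 23.1, 4.49 and 3.88 CPM in vehicle and 11.5, 3.67 and 3.26 CPM at 20 µM, highest in replicate 1. KITLG, which encodes the ligand of KIT, was among the higher genes with a TATA box near the start.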
